A study of Mus musculus with 32 samples.

Results

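The genes described here encode the core of nucleotide excision repair and its helicase complex TFIIH: Xpa, Ercc1, Ercc2, Ercc3, Ercc4, Ercc5, Gtf2h1, Gtf2h4, Rpa1 and Rpa2. They were chosen by name, as 10 of the 25058 genes present in the files of all assays, and their symbols were matched to the Ensembl identifiers of the files through GENCODE M21. All 10 were found, all 10 passed the filter on genes applied to the DNA libraries (16502 genes did) and all 10 passed the filter on low counts in the RNA of each organ.

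Cisplatin crosslinks neighbouring guanines, and nucleotide excision repair cuts out a short oligomer that carries such an adduct. The TFIIH helicases open the DNA around the lesion, XPA and RPA hold the opened strands, and a pair of nucleases cuts on either side. In transcribed genes, a stalled RNA polymerase calls the same factors to the transcribed strand (TS), so that the TS is repaired faster than the non-transcribed strand (NTS). The genes of this machinery are themselves transcribed in every organ, so each of them is both a part of the repair system and a template on which it works.

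Adducts (Damage-seq), excised oligomers (XR-seq) and RNA were measured in kidney, liver, lung and spleen of female C57BL/6J wild-type mice aged 6 to 7 months. The mice received 1 intraperitoneal injection of cisplatin at 10 mg per kg at Zeitgeber time 1, and control mice received saline. By the protocol the organs were taken 4 h later, at Zeitgeber time 5, whereas a tag on every sample gives 2 h. Each organ had 2 Damage-seq and 2 XR-seq libraries, all from cisplatin-treated mice, and 2 RNA-seq libraries from controls and 2 from cisplatin-treated mice, so the DNA assays have no untreated background. Whole organs were used, and in such bulk samples fewer cells of a type and less RNA or repair per cell cannot be told apart.

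Reads on genes numbered 1571167 to 6441367 per library in Damage-seq, 10658675 to 59779770 in XR-seq and 15619474 to 162270280 in RNA-seq. In each organ the summed RNA of its own 5 marker genes was far above that in the other organs. A note with the series says that control and cisplatin had been exchanged in the names of the 8 RNA-seq libraries of lung and spleen and were since put right, and the present names were used here. The dispersion index, the spread of a pair over that of repeated sampling of 1 library, was 2.75 for the lung controls and 2.98 for the spleen controls. In the other RNA pairs it was 39.3 to 349.4. The lung and spleen control pairs lay under a limit of 3, and each was summed and counted as 1 control sample. In lung, the summed RNA of 5 B cell markers was 71.9 to 98.5 reads per 1000000 reads on genes (RPM) after cisplatin against 319.7 to 328.1 in controls, and in spleen that of 5 pancreas acinar markers was 1308 to 1723 after cisplatin against 14.8 to 16.1 in controls. The p53 target Cdkn1a was higher after cisplatin in kidney by 4.33 on the log2 scale and in lung by 1.91, which passed the test, and by 3.06 in liver and 1.50 in spleen, which did not.

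Positions are given on GRCm38. The scaffold gene Xpa spans chr4:46155347-46196311 on the minus strand. Rpa1 (chr11:75298166-75348324, minus strand) and Rpa2 (chr4:132768332-132778752, plus strand) encode subunits of the single-strand binding protein RPA. The TFIIH genes are Ercc2, which encodes the helicase XPD (chr7:19382010-19395694, plus strand), Ercc3, which encodes the translocase XPB (plus strand, 29852 bp), and the structural subunits Gtf2h1 (chr7:46796103-46823800, plus strand) and Gtf2h4 (chr17:35667730-35673739, minus strand). The nucleases are ERCC1 (chr7:19344778-19356524, plus strand) with its partner XPF from Ercc4 (chr16:13109684-13150617, plus strand), which together cut 5′ of the lesion, and XPG from Ercc5 (chr1:44147744-44181260, plus strand), which cuts 3′ of it. Antibodies to the products of Ercc3 and Gtf2h1 were used to pull down the excised oligomers in XR-seq.

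Each gene offers cisplatin a number of GG dinucleotides on either strand, from 420 on the TS and 569 on the NTS of Gtf2h4 to 2819 and 2813 on those of Rpa1. Reads of XR-seq and Damage-seq were counted by the authors only where GG lay at the position that marks an adduct, so that GG content sets where a read can arise. The last 30 coding bases of Xpa, Ercc1 and Ercc4 follow, each strand 5′ to 3′ with every GG in capitals. The coordinates are chr4:46175270-46175299 for Xpa, chr7:19356440-19356469 for Ercc1 and chr16:13148227-13148256 for Ercc4, and the sequence is that of the RefSeq genome GRCm38.p6.
Xpa NTS: tgtGGccacgaactgacatatgaaaaaatg
Xpa TS: cattttttcatatgtcagttcgtGGccaca
Ercc1 NTS: ctacacgaacccttcctcaaagtgcctcga
Ercc1 TS: tcgaGGcactttgaGGaaGGGttcgtgtag
Ercc4 NTS: gacttGGtgtccaaaGGcagagtgagaaag
Ercc4 TS: ctttctcactctgcctttGGacaccaagtc
In the Ercc1 stretch 4 GG lie on the TS and 0 on the NTS, while Xpa has 1 on each strand and Ercc4 has 2 on the NTS and 1 on the TS. All 30 bases of the Ercc1 stretch also belong to Cd3eap, a gene read from the opposite strand, so the TS of Ercc1 is there the NTS of Cd3eap. The stretches of Xpa and Ercc4 lie in no gene of the opposite strand.

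Several of the 10 genes share DNA with a gene of the opposite strand. Ncbp1, which encodes a cap-binding protein, covers 17057 bp or 41.6% of Xpa, and all of it lies past the last coding base of Xpa, where 1 of 6 annotated Xpa transcripts reaches. Cd3eap, which encodes a subunit of RNA polymerase I, covers 511 bp or 4.35% of Ercc1. Over Ercc2 lie an antisense RNA, Gm26852 (76.7% of the gene), and the kinesin light chain gene Klc3 (9.19%), and over Gtf2h1 a pseudogene, Gm9392, of 554 bp. The other 6 genes overlap no opposite-strand gene in this annotation. Any read in a shared stretch counts for the TS of one gene and the NTS of the other.

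The XR-seq strand ratio compares TS reads with NTS reads of the same gene, each per GG, and asks how far repair favoured the transcribed strand. In all 10 genes the TS was above the NTS over the 4 organs (edgeR quasi-likelihood test, Benjamini-Hochberg adjusted p between 2.713e-08 and 0.001306), against 68.6% of all genes tested. The size of the preference ranged from 1.38-fold in Xpa to 66.2-fold in Ercc3. The count stayed at 10 without any single library and with limma or DESeq2.

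Among the factors that hold the opened DNA, Xpa had the smallest ratio of the 10 genes. Its library ratios were 1.09 and 1.31 in liver, 1.60 and 1.36 in kidney, 1.31 and 1.27 in spleen, and 1.76 and 1.45 in lung. All 8 lay above 1, and the mean ratio of 1.38 (log2 0.46, SE 0.09, adjusted p = 0.001306) placed Xpa at percentile 21.9 of all genes. Within single organs the ratio of Xpa passed the test in kidney (adjusted p = 0.02288) and lung (0.009136), where 58.6% and 61.2% of genes did, but not in liver (0.2472) or spleen (0.1023), where 52.7% and 59.5% did. Rpa1 had a mean ratio of 42.0 (percentile 91.1) and Rpa2 of 17.1 (percentile 72.1).

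The small ratio of Xpa came with a high NTS level beside a TS level above that of the median gene. On the scale used here, RPM per 1000 GG, its NTS level was 22.2 to 34.9 over the 8 libraries, where the median gene lay between 1.19 and 2.45, and its TS level was 33.7 to 47.4, where the median gene lay between 18.4 and 21.9. Ncbp1, whose TS is the NTS of Xpa in the shared stretch, had TS levels between 32.7 and 53.7. The files give 1 count per gene and strand, so the reads of the shared stretch could not be set apart, and the part of Ncbp1 in the ratio was not tested. Among all genes, the median log2 ratio was 2.94 in the 9784 genes without an opposite-strand overlap, 2.78 in the 4283 with an overlap under 25% of the gene, and 0.51 in the 2435 with a larger overlap. Ercc2, overlapped over 85.9% of its length, had a log2 ratio of 4.24.

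Within TFIIH, the ratios were 66.2 in Ercc3 (log2 6.05, SE 0.15, percentile 96.8), 24.4 in Gtf2h1, 19.0 in Ercc2 and 11.1 in Gtf2h4. The nuclease genes Ercc4 and Ercc5 had ratios of 57.9 and 65.7, at percentiles 95.4 and 98.4. Ercc1 stood apart from its partner Ercc4, with a ratio of 3.01 (log2 1.59, SE 0.11, percentile 36.8). The ratio of Ercc5 was the least precise (log2 6.04, SE 0.61), since 0 NTS reads were counted in kidney 1 and spleen 1 beside 758 and 386 TS reads, whereas kidney 2 and spleen 2 had 66 and 13. For kidney 1 the 95% Wilson interval of the TS share was 99.5 to 100%, and for kidney 2 it was 94.6 to 96.7%. These intervals cover counting error only.

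**Figure D1:**
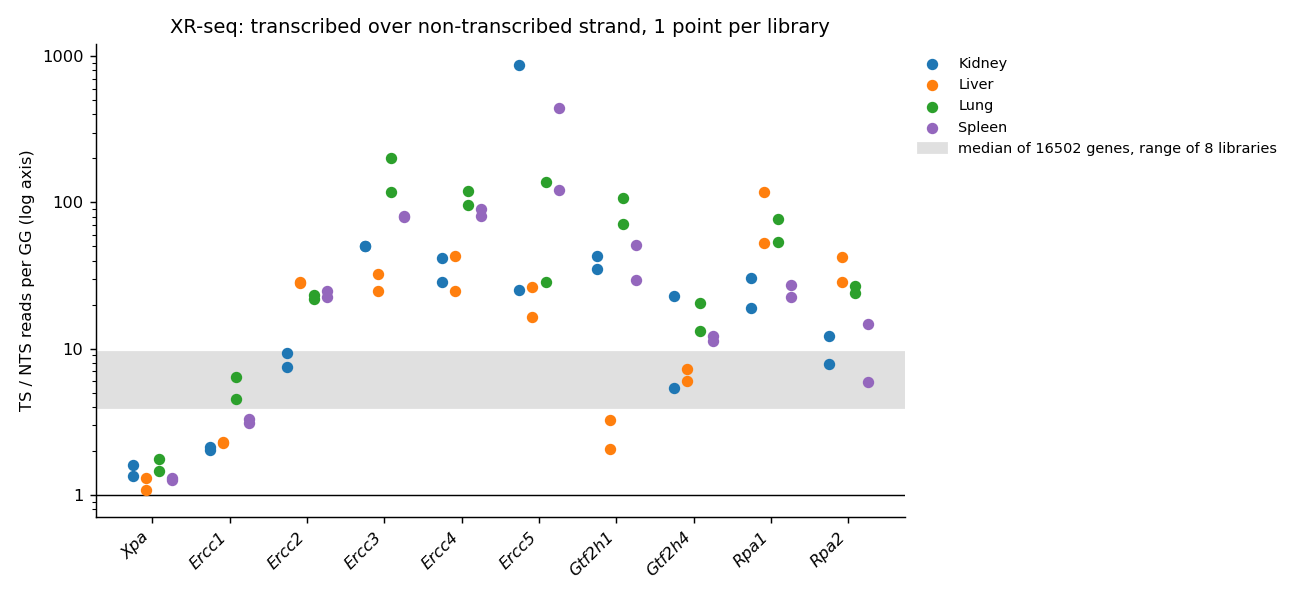
TS over NTS reads per GG in XR-seq, on a log axis, for each of the 10 genes, with 1 point per library coloured by organ and the range of the 8 library medians over all genes as a band. Xpa sits just above 1 and Ercc1 below 7 in every library, while Gtf2h1 in liver (3.24 and 2.06) lies far below its values in the other organs (29.3 to 107.6).

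The strand ratio differed between organs in 6 of the 10 genes (Gtf2h1, Ercc2, Ercc3, Ercc4, Ercc1 and Rpa1), against 18% of all genes tested. For Gtf2h1, a structural subunit of TFIIH, the library ratios were 3.24 and 2.06 in liver, 43.3 and 34.9 in kidney, 51.2 and 29.3 in spleen, and 107.6 and 70.9 in lung. Both liver libraries lay below all the others, and the organs differed with an adjusted p of 0.00505. In liver, 75.2% of the Gtf2h1 reads of replicate 1 (Wilson interval 73.5 to 76.8%) and 65.8% of those of replicate 2 (63.6 to 67.8%) fell on the TS, whereas in the other organs the TS held 96.5 to 99.1%.

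For Ercc2 it was the kidney that was low. Its library ratios were 28.5 and 28.3 in liver, 7.49 and 9.41 in kidney, 24.8 and 22.7 in spleen, and 23.3 and 21.8 in lung, and the organs differed with an adjusted p of 0.01285. Both kidney libraries were below the 6 others. Klc3, which shares the end of Ercc2 on the opposite strand, had kidney TS levels of 38.8 and 29.4 against 1.56 to 10.2 in the other organs. The antisense RNA Gm26852, over 76.7% of Ercc2, had no counts of its own. The part of either gene in the kidney ratio was not tested.

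In Ercc3, Ercc4 and Ercc1 the lung ratios were the highest. The median gene was also highest in lung. Its log2 ratio was 2.17 and 1.97 in liver, 2.55 and 2.39 in kidney, 2.89 and 2.87 in spleen, and 3.24 and 2.91 in lung. The test between organs did not take this shift of the median gene out. Ercc3 had organ ratios of 28.6 in liver, 51.4 in kidney, 83.3 in spleen and 156.3 in lung (adjusted p = 0.01604). Ercc4 followed the order liver, kidney, spleen, lung as well, with 32.7, 35.0, 90.0 and 108.9 (adjusted p = 0.02783). Ercc1 had 2.07 in kidney, 2.28 in liver, 3.22 in spleen and 5.40 in lung (adjusted p = 0.04289). Rpa1 went another way, with 24.2 in kidney and 25.1 in spleen below 64.9 in lung and 78.8 in liver (adjusted p = 0.04947).

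These organ differences rested on few libraries. Without either liver library 0 of the 10 genes passed, with an adjusted p of 0.05047 or 0.06905 for Gtf2h1. Without lung 1, Gtf2h1 alone passed, and without lung 2, spleen 1 or spleen 2 Gtf2h1, Ercc2 and Ercc3 did. With limma on log2 ratios, Gtf2h1 alone passed (adjusted p = 0.0362), and with DESeq2 7 genes did.

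The level of repair on the TS alone was next compared between organs. On the TS all 10 genes lay above the median gene in each organ. The lowest places were those of Rpa2 in kidney (percentile 53.1) and Ercc5 in liver (53.7), and the highest those of Ercc2, at percentile 95.8 in liver, 99.4 in kidney, 99.6 in spleen, and 99.8 in lung. The TS level differed between organs in 7 of the 10 genes, against 60.7% of all genes tested, so the share of these genes was close to that of all genes. In 5 of the 7 (Ercc2, Ercc3, Ercc4, Ercc5 and Gtf2h1) liver was lowest, and in the RPA genes Rpa1 and Rpa2 liver was highest. The median gene was itself 1.28-fold higher in kidney than in liver on this scale.

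The TS level of the helicase gene Ercc2 was 66.1 and 65.5 in liver, 123.3 and 119.1 in kidney, 99.2 and 94.3 in spleen, and 117.9 and 98.0 in lung. Both liver libraries lay below all the others, and kidney was 1.84-fold above liver (adjusted p = 0.0001746 between organs). Liver differed from each other organ (adjusted p between 6.026e-05 and 0.001699), while the neighbours kidney and lung (0.3494) and lung and spleen (0.4152) did not differ beyond their spread. The gap between kidney and liver fell to 0.44 on the log2 scale with TMM scaling, and the test over the 4 organs still passed (adjusted p = 0.03502). This scaling took the kidney minus liver value of the median gene from 0.36 to -0.08.

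The other genes low in liver had smaller gaps. Gtf2h1 had TS levels of 27.9 and 23.2 in liver, 33.6 and 49.0 in kidney, 30.8 and 37.5 in spleen, and 37.3 and 47.5 in lung, and Ercc5 had 22.9 and 19.4, 28.0 and 36.3, 24.6 and 29.2, and 35.6 and 38.1 in the same order. Liver libraries were lowest in both genes. Lung was above liver 1.66-fold in Gtf2h1 (adjusted p = 0.02835 between organs) and 1.74-fold in Ercc5 (0.008937 between organs). Ercc3 (1.47-fold over liver, 0.04284 between organs) and Ercc4 (1.37-fold, 0.007384) were also highest in lung. With TMM scaling Ercc3 (0.5889), Ercc5 (0.1149) and Gtf2h1 (0.3659) no longer passed. Ercc4 still passed the test over the 4 organs (0.02545), but lung was then only 0.10 above liver on the log2 scale and kidney was lowest (-0.28 against liver). The median gene was then 0.11 higher in liver than in lung. Leaving out 1 library ended the call of Ercc3 for each library of liver, lung and spleen, that of Gtf2h1 for both of liver and lung 2, that of Ercc5 for liver 2 and lung 2 and that of Rpa2 for liver 2, so that 3 genes passed without liver 2 and 4 without lung 2.

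The RPA genes showed the opposite order. The TS level of Rpa1, the large subunit, was 76.7 and 69.7 in liver, 49.9 and 50.8 in spleen, 47.0 and 45.9 in lung, and 43.4 and 33.1 in kidney. Both liver libraries were above the 6 others, 1.91-fold above kidney (adjusted p = 0.0001968 between organs). Liver differed from each other organ, while lung did not differ from spleen (0.6108) or kidney (0.1339). Rpa2, the middle subunit, had 45.7 and 50.1 in liver, 44.8 and 40.1 in spleen, 34.0 and 40.2 in lung, and 22.1 and 28.4 in kidney. For Rpa2 kidney was lowest, below liver (1.90-fold, adjusted p = 0.0152 between organs) and spleen (0.0241) but not beyond the spread below lung (0.09396), and liver, spleen and lung did not differ beyond their spread. With TMM scaling the liver excess over kidney grew to 1.38 in Rpa1 and 1.37 in Rpa2 on the log2 scale.

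The TS levels of Xpa, Ercc1 and Gtf2h4 were not shown to differ between organs. Over the 8 libraries they ranged from 33.7 to 47.4 in Xpa (adjusted p = 0.3956), from 55.0 to 74.4 in Ercc1 (0.3966) and from 33.5 to 72.1 in Gtf2h4 (0.4033). In Gtf2h4, the shortest of the genes, kidney 1 and kidney 2 alone spanned 72.1 to 44.3. With TMM scaling Ercc1 did pass (adjusted p = 0.01044), and without kidney 1 Xpa did (0.03412).

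**Figure D2:**
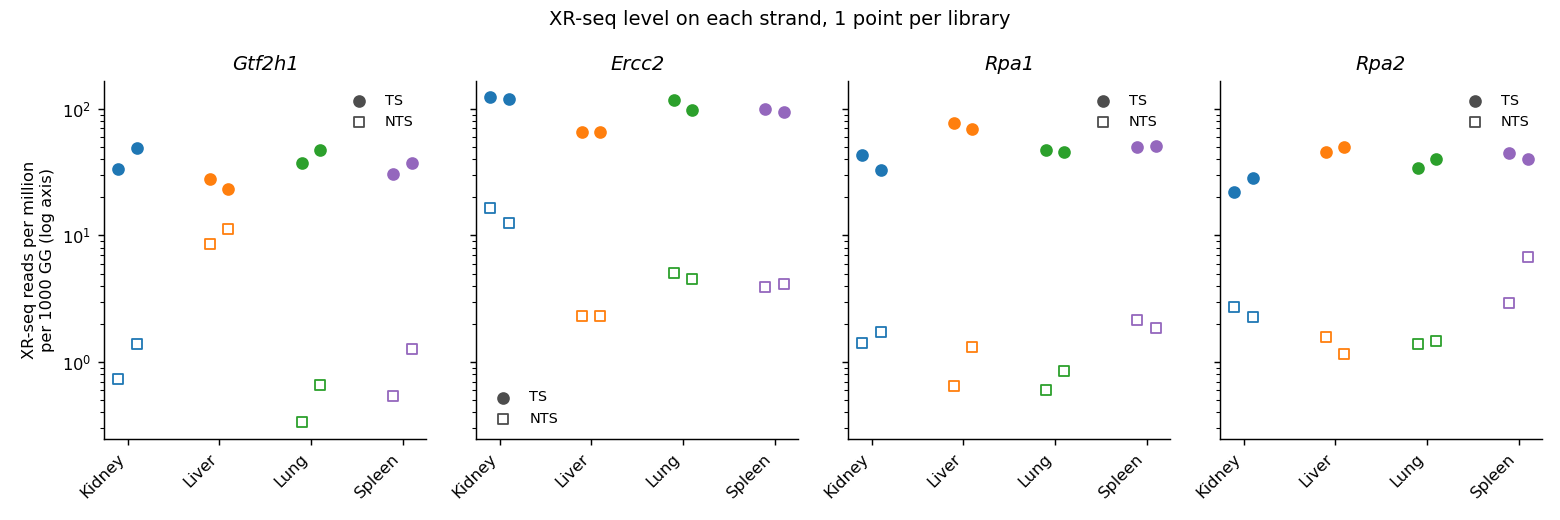
XR-seq level in RPM (reads per 1000000 reads on genes) per 1000 GG, on a log axis, by organ for Gtf2h1, Ercc2, Rpa1 and Rpa2, with 1 point per library, TS as circles and NTS as squares. The NTS of Gtf2h1 is high in liver (8.60 and 11.3) and that of Ercc2 in kidney (16.4 and 12.6), while the TS of Rpa1 is highest in liver (76.7 and 69.7).

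On the NTS, 3 of the 10 genes differed between organs (Ercc1, Ercc2 and Gtf2h1), against 29% of all genes. The NTS level of Gtf2h1 was 8.60 and 11.3 in liver, from 635 and 665 reads, and 0.33 to 1.38 in the 6 other libraries, from 8 to 61 reads. Liver stood 20.1-fold above lung (adjusted p = 0.0004026 between organs) and 12.2-fold above the mean of the other organs, where the median gene had 1.14-fold. Of 16465 genes, 396 had a liver excess at least as large, so the NTS of Gtf2h1 was unusual but not alone. The pseudogene Gm9392 within Gtf2h1 was not in the files, and its part was not tested.

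The NTS level of Ercc2 was 2.31 and 2.30 in liver, 16.4 and 12.6 in kidney, 3.94 and 4.14 in spleen, and 5.06 and 4.49 in lung. Kidney was 6.31-fold above liver (adjusted p = 0.0002318 between organs), and the Klc3 TS levels given above were likewise highest in kidney and lowest in liver. Gm26852 had no counts of its own, and the part of either gene was not tested. Ercc1 had NTS levels of 31.1 and 29.0 in liver, 25.9 and 34.5 in kidney, 19.1 and 18.4 in spleen, and 11.6 and 15.1 in lung. In Ercc1 kidney was 2.27-fold above lung (adjusted p = 0.003311 between organs). The median gene was 1.62-fold higher in kidney too, and with TMM scaling the call of Ercc1 was lost (0.2923). Cd3eap, on the other strand at the end of Ercc1, had TS levels of 40.9 to 68.4, and its part was not tested. The NTS calls of Ercc1, Ercc2 and Gtf2h1 held without each single library. Gtf2h4 passed as well without kidney 1, and Ercc5 and Rpa2 without kidney 2, which made 5.

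Damage-seq reads mark adducts still present when the organs were taken, and were few on single genes: 2 to 220 reads per gene, strand and library. Over the 4 organs, 8 of the 10 genes had fewer adduct reads per GG on the TS than on the NTS, against 44.9% of all genes tested. Ercc2 had the lowest ratio, 0.325, with library ratios of 0.186 and 0.347 in liver, 0.589 and 0.495 in kidney, 0.211 and 0.330 in spleen, and 0.374 and 0.398 in lung. All 8 were below 1 (log2 -1.62, SE 0.18, adjusted p = 2.802e-14, percentile 2.23).

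The remaining TFIIH genes were also lower on the TS, with ratios of 0.447 in Gtf2h1, 0.531 in Ercc3 and 0.570 in Gtf2h4. Among the nuclease genes the ratios were 0.421 in Ercc4, 0.457 in Ercc5 and 0.710 in Ercc1. The ratio of Ercc1 (log2 -0.49, SE 0.17, adjusted p = 0.01104) was lost with limma (0.069) and DESeq2 (0.0695) and without liver 2, lung 2 or spleen 2. That of Gtf2h4 (adjusted p = 0.004946) was lost without liver 1 (0.05893).

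Of the factors that hold the opened DNA, Rpa1 was lower on the TS (0.664, log2 -0.59, SE 0.11, adjusted p = 1.249e-06). Xpa had a ratio of 0.883 (log2 -0.18, SE 0.14, adjusted p = 0.2909), with library ratios from 0.660 to 1.13, and Rpa2 one of 1.07 (log2 0.09, SE 0.24, adjusted p = 0.7825), with library ratios from 0.773 to 1.37. For Rpa2 there were 3 to 47 reads per strand and library. The organ difference in the strand ratio passed the test in 0 of the 10 genes by edgeR (against 7.65% of all genes) and by limma, and 3 of the 10 had an unadjusted p under 0.05, as did 21.5% of all genes. DESeq2 gave an adjusted p for 2 of the 10, Ercc4 (0.5016) and Rpa1 (0.9696), and NA for the others. Without lung 1, Ercc4 passed (adjusted p = 0.022).

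**Figure D3:**
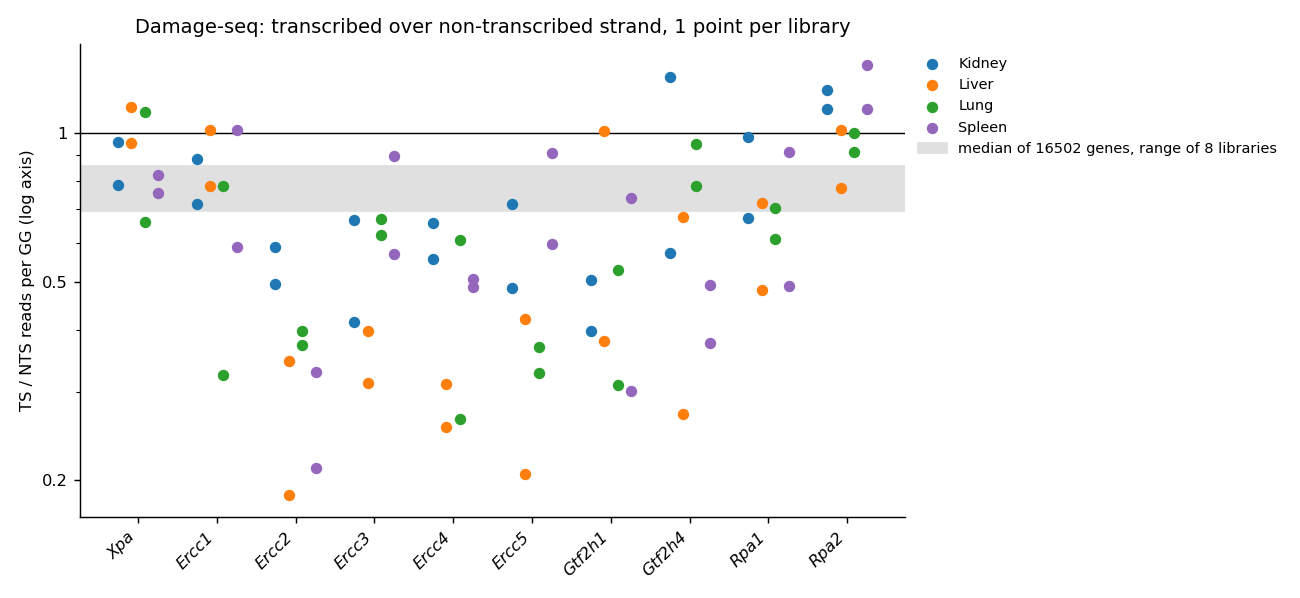
TS over NTS reads per GG in Damage-seq, on a log axis, for each of the 10 genes, with 1 point per library coloured by organ and the range of the 8 library medians over all genes as a band. Every library of Ercc2 lies below 0.6, and the libraries of Xpa and Rpa2 lie on both sides of 1.

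Adduct levels on a single strand were compared between organs next. On the TS, 6 of the 10 genes differed between organs (Ercc1, Ercc2, Ercc4, Gtf2h4, Rpa1 and Rpa2), against 30.5% of all genes, and kidney was highest in all 6. The median gene was 1.48-fold higher in kidney than in liver, and with TMM scaling the calls of Ercc1 (0.008973) and Ercc2 (0.0003243) were left. The Damage-seq TS level of Ercc2 was 1.48 and 2.10 RPM per 1000 GG in liver, 2.18 and 3.87 in spleen, 3.21 and 2.97 in lung, and 10.4 and 8.21 in kidney. Kidney was 5.18-fold above liver (adjusted p = 2.259e-06 between organs) and differed from each other organ, while liver, lung and spleen did not differ beyond their spread. Of the remaining calls, Ercc4 and Rpa2 were lost without either kidney library or liver 2, Rpa2 without spleen 1, Gtf2h4 without kidney 1 and Rpa1 without kidney 2, so that 3 genes passed without either kidney library, and without liver 1 only Ercc1 and Ercc2 passed. DESeq2 called Ercc2 alone (0.02746) among the 9 genes to which it gave an adjusted p.

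Ercc1 and Ercc2 were also the genes whose NTS differed in Damage-seq (2 of 10, against 16.9% of all genes). The NTS level of Ercc1 was 18.7 and 17.6 in kidney and 5.30 to 13.8 elsewhere, and its TS level was 13.4 and 15.6 in kidney and 4.38 to 7.50 elsewhere. Both kidney libraries were above the other 6 on both strands. Kidney was 2.66-fold over liver on the NTS (adjusted p = 0.0004403 between organs) and 2.63-fold over lung on the TS (9.105e-05 between organs). The NTS of Ercc2 was 8.92 and 6.76 in liver, 17.7 and 16.8 in kidney, 12.4 and 12.6 in spleen, and 8.87 and 7.68 in lung. Kidney was 2.20-fold above liver (adjusted p = 0.0002934 between organs). On chromosome 7 Ercc1 ends at 19356524 and Ercc2 starts at 19382010, and the part of this closeness was not tested. Both NTS calls held without each single library and with TMM scaling, but DESeq2 called 0 of the 8 genes to which it gave an adjusted p.

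Before the response to cisplatin, RNA levels were compared between the organs of control mice. The values are RPM divided by exon length in kilobases, known as RPKM, after TMM scaling across all organs. The level differed between organs in 4 of the 10 genes (Rpa1, Rpa2, Xpa and Gtf2h4), against 69.1% of all genes tested, a smaller share than among all genes. A count of 3 was reached without either kidney control, either liver control or kidney cisplatin 2, and a count of 5 without either liver cisplatin library. RNA of Rpa2 was 11.6 in spleen and 4.95 in lung, each the mean of the pair counted as 1 control sample, and 3.68 ± 0.33 (SD, n = 2) in liver and 2.83 ± 0.07 in kidney. Spleen was above kidney by 2.20 on the log2 scale (adjusted p = 7.93e-05), above liver by 1.72 (0.0004212) and above lung by 1.25 (0.01734), while liver did not differ beyond the spread from kidney (0.1526) or lung (0.1995).

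Rpa1 RNA was 10.6 ± 2.62 in kidney, 12.1 in lung, 13.3 ± 3.34 in liver and 22.0 in spleen. Spleen exceeded kidney (adjusted p = 0.007796), and its gap to liver (0.05437) and lung (0.08476) did not pass. Both RPA genes had their highest mean RNA level, in controls, in spleen and their highest mean XR-seq TS level, after cisplatin, in liver. Between spleen and liver, the gap in Rpa2 RNA and that in the Rpa1 TS level (adjusted p = 0.003598) passed. Those in Rpa1 RNA and in the Rpa2 TS level (0.5478) did not.

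The liver values depend on the scaling, because TMM raised them by 0.755 on the log2 scale over plain RPKM and lowered those of lung and spleen by 0.386 and 0.362. Xpa RNA was highest in liver, 10.2 against 5.85 in kidney, 5.05 in lung and 7.68 in spleen, but in plain RPKM it was 6.04 in liver and 9.85 in spleen. Likewise Gtf2h4 stood at 7.77 in liver and 3.33 to 4.47 elsewhere with TMM scaling, but between 4.34 and 4.65 in all 4 organs in plain RPKM. The spleen excess of Rpa2 held in both. RNA of the other 6 genes was not shown to differ, and among them Gtf2h1, at 13.1 to 17.6 RPKM, had the highest control level of the 10 in kidney, liver and lung.

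**Figure D4:**
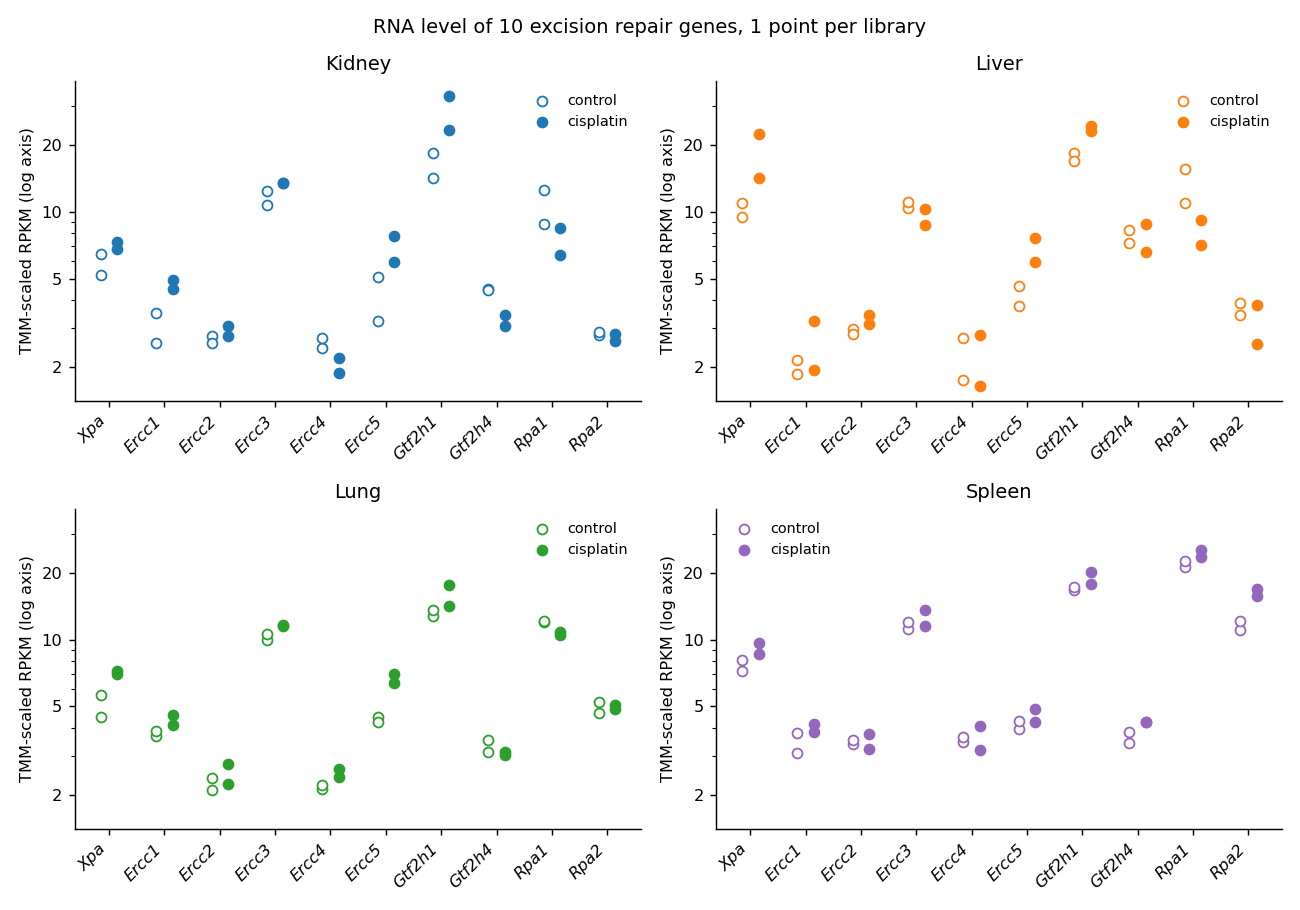
RNA level in TMM-scaled RPKM, on a log axis, of the 10 genes by organ, with 1 point per library, controls open and cisplatin filled. In kidney both cisplatin points of Gtf2h1 (33.5 and 23.4) lie above both controls (18.4 and 14.2), and the spleen points of Rpa2 lie above those of the other organs.

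The response to cisplatin was tested in each organ against a log2 change of 0.4, without a term for replicate number. None of the 10 genes passed in any organ (0 of 10 in each, by edgeR and by DESeq2), where 5.05% of all genes tested passed in kidney, 2.09% in lung, 0.181% in spleen and 0% in liver. At an unadjusted p under 0.05 against no change, 3 of the 10 were found in kidney (Gtf2h1, Ercc5 and Ercc1), and 1 each in liver (Xpa), lung (Ercc5) and spleen (Rpa2). Of all genes tested, 11.7% in liver, 28.4% in kidney, 8.79% in spleen and 20% in lung had such a p, so these counts were close to the background. The median log2 change of the 10 genes was 0.14 in liver, 0.20 in kidney, 0.17 in spleen, and 0.14 in lung, beside 0.03, -0.003, 0.02 and 0.03 for all genes tested. With a term for replicate number, edgeR called Gtf2h1 (adjusted p = 0.002849) and Ercc5 (0.007958) in kidney. No source says that replicate numbers pair samples.

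The largest values in kidney belonged to Gtf2h1, Ercc5 and Ercc1. Gtf2h1 RNA was 18.4 and 14.2 in controls and 33.5 and 23.4 after cisplatin (log2 0.83, SE 0.25, adjusted p = 0.2173). Ercc5 RNA was 5.07 and 3.22 in controls and 7.83 and 5.96 after cisplatin (log2 0.77, SE 0.28, adjusted p = 0.3209). In both genes the groups did not overlap. Both passed once control 1 was left out (adjusted p = 0.02202 and 0.01918), where the lower control was the lone value and was assumed to vary like the cisplatin pair, and 0 of the 10 genes passed without control 2, cisplatin 1 or cisplatin 2. Ercc1 RNA was 2.57 and 3.52 in controls and 4.50 and 4.93 after cisplatin (log2 0.65, SE 0.25, adjusted p = 0.3628), while its partner Ercc4 was 2.44 and 2.70 in controls and 1.88 and 2.21 after cisplatin (log2 -0.30, SE 0.21, adjusted p = 0.8328).

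Ercc5 had similar values in liver and lung. In liver it was 4.65 and 3.76 in controls and 7.59 and 5.94 after cisplatin (log2 0.74, SE 0.33, adjusted p = 0.7131). In lung it was 4.49 and 4.27 in controls and 6.40 and 6.98 after cisplatin (log2 0.60, SE 0.17, adjusted p = 0.396), beside the lower B cell, T cell and dividing cell markers of the cisplatin lungs, whose part was not tested. In spleen the change of Ercc5 was 0.14 (SE 0.16).

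Xpa was 9.49 and 10.9 in liver controls and 14.2 and 22.4 after cisplatin (log2 0.90, SE 0.36, adjusted p = 0.6224), and passed only without cisplatin 1 (0.03049), where 22.4 was the lone value. Rpa1 in liver was 11.0 and 15.7 in controls and 7.07 and 9.23 after cisplatin (log2 -0.65, SE 0.34, adjusted p = 0.8063). Rpa2 in spleen was 11.1 and 12.1 in controls and 16.8 and 15.8 after cisplatin (log2 0.50, SE 0.17, adjusted p = 1), beside the pancreas markers of the cisplatin spleens, whose part was not tested.

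Over all 10 genes, both cisplatin libraries lay above both controls in 4 genes in liver, 6 in kidney, 6 in spleen and 6 in lung, where 16.8%, 26.2%, 29.4% and 36.5% of all genes did. They lay below both controls in 2, 3, 0 and 1 genes, where 25.3%, 30.1%, 29.2% and 30% did. In lung and spleen both controls here are the libraries of the pair that the tests counted as 1 control sample. Xpa and Gtf2h1 were above in all 4 organs, by log2 0.25 to 0.90 and 0.18 to 0.83, though neither passed the main test in any organ. The share of all genes that were above in all 4 organs was not counted. Rpa1 was below in kidney, liver and lung and above in spleen, with log2 values of -0.49, -0.65, -0.21 and 0.17. The difference of the response between organs passed in 0 of the 10 genes by edgeR and by DESeq2 (0.209% of all genes passed by edgeR), and 0 had an unadjusted p under 0.05, as 8.42% of all genes did.

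Around these genes, 3 wider lists of the pathway were read in the same fits. Of 7 other subunits of TFIIH and RPA and 10 genes of lesion recognition, 0 passed in any organ, and of 18 genes of gap filling and ligation 1 passed, in kidney, where 5.05% of all genes did. That gene was Pcna, which encodes the polymerase clamp and is also a p53 target: its RNA was 19.5 and 14.4 in kidney controls and 39.7 and 32.1 after cisplatin (log2 1.15, SE 0.19, adjusted p = 0.04604). Mnat1, a subunit of the TFIIH kinase, had log2 values of -1.23 in kidney (adjusted p = 0.068) and -1.33 in liver (0.3338), and in liver it passed only in 1 fit over all organs (-1.36, 0.04108), where 2.71% of genes did.

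The genes whose RNA ran most alike with a member over the 14 RNA samples were Cyp4f18 with Rpa2 (Pearson r = 0.986), Gemin2 with Xpa (0.982) and Rabl3 with Gtf2h4 (0.981), out of 19099 genes compared. Among the 10 genes themselves Rpa1 and Rpa2 were the closest pair (0.915), and Ercc1 and Gtf2h4 the most opposed (-0.763). The 14 samples share organs and scaling, so these values are descriptions and carry no test.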

How the data were processed

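The 10 genes and the lists around them were chosen with earlier results of these data known. The authors made the Damage-seq and XR-seq files by trimming with cutadapt, alignment to mm10 with BWA and removal of duplicates with Picard. Only reads whose GG lay where an adduct is expected were retained, and raw counts for the TS and NTS of every gene were deposited. For RNA-seq they used STAR and featureCounts on poly-A selected, unstranded libraries and deposited total counts per gene, so RNA of overlapping genes on opposite strands cannot be told apart where reads overlap. Tool versions and each library's batch, which the authors adjusted for, were not given in the sources used here. A line of each DNA file without identifier or value was dropped.

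GG dinucleotides were counted on GRCm38 between the ends of each gene. Genes with 10 or more GG, shorter than 100000 bp and with 20 or more reads in every assay were kept. DNA counts were scaled by reads on genes of both strands. Strand ratios came from fits with a term for each library, and library ratios used a pseudocount of 1. Tests used edgeR 4.0.16 in R 4.3.3 (quasi-likelihood, TMM for RNA, default filter, a log2 threshold of 0.4 for the response) with Benjamini-Hochberg adjusted p under 0.05 over all genes. Lung and spleen had 1 summed control sample (dispersion index of 3 or below), which was assumed to vary like the cisplatin pair. DESeq2 1.42.0, limma 3.58.1, other scalings and filters, a replicate block and leaving out each library were alternatives. All 10 genes were named, and of the wider lists those called in an organ. The fits were tested on simulated data with a single fixed spread for all genes, which does not show how they behave at the spread of these libraries. The study calls its replicates biological. Counts on single genes limit Damage-seq most, and intervals are 95% Wilson intervals.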

Additional observations from a re-analysis of the deposited data

Results flagged for a closer look

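The XR-seq strand ratio differed between the 4 organs in 6 of the 10 genes by the test of the difference itself, in edgeR with Benjamini-Hochberg adjustment over all genes. The adjusted p was 0.00505 for Gtf2h1, lowest in liver (2.59 against 38.7 to 89.1). It was 0.01285 for Ercc2, lowest in kidney (8.41 against 22.6 to 28.6). It was 0.01604 for Ercc3, 0.02783 for Ercc4 and 0.04289 for Ercc1, all highest in lung, and 0.04947 for Rpa1, highest in liver. The ratio of the median gene was highest in lung too, and the test did not take this shift out. Gtf2h1 alone kept the call with limma, and its calls ended without either liver library.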

How the results depend on the processing

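The strand preference of XR-seq was called in all 10 genes under each alternative run, and 0 genes responded in RNA under each except the block and left-out libraries. Of 360 counts recomputed, 270 stayed within 1.5 times, and of 1160 values of single genes 1064 were counted as unchanged. That meant the same direction and side of the threshold or, without a test, a shift below the SD of the cisplatin pair.

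The genes of all kinds called in RNA depended most on the setting. In kidney, 782 were called, 1896 without the filter, 1711 against no change and 3182 with the replicate block. In liver, 0 were called (1622 at an unadjusted p under 0.05), 188 with DESeq2, 155 without the filter, 518 in 1 fit over all organs and 1015 with the block. In lung, 381 were called, 1089 without the filter, 804 against no change, 70 in 1 fit, 1914 with the block and 1606 with each control a replicate. In spleen, 32 were called, 85 with DESeq2, 58 without the filter, 172 with the block and 62 with each control a replicate. For the response between organs, 40 were called, 736 with DESeq2, 24 with RLE, 344 without the filter, 621 with each control a replicate and 569 with the block.

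Replicate numbers gave only 2 pairs per comparison and no source says they pair samples. Differences between replicates correlated at 0.348 in liver, 0.424 in kidney, 0.283 in spleen and 0.0589 in lung, and between -0.0569 and 0.0832 in the DNA assays. With the replicate block 2 of the 10 genes were called in kidney, Gtf2h1 (0.002849) and Ercc5 (0.007958).

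In the DNA assays, the XR-seq NTS gave 4793 genes and 7439 with all genes, and 5 of the 10 with DESeq2. The XR-seq strand ratio between organs gave 2974 genes, 998 and 486 with limma (1 of the 10 each) and 6082 with DESeq2. The Damage-seq TS gave 5032 genes and 1475 with DESeq2, and 2 of the 10 with TMM and 1 with DESeq2. The Damage-seq NTS gave 2793 genes and 379 with DESeq2 (0 of the 10). The Damage-seq strand ratio between organs gave 1263 genes, 2203 with all genes, 0 and 0 with limma and 203 with DESeq2.

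Directions turned only in differences that were not called, DESeq2's XR-seq NTS value of Xpa excepted. In log2, the value of the highest over the lowest organ for Xpa became -0.1109 with TMM and -0.1216 with DESeq2 on the XR-seq TS, -0.08067 and -0.04965 on the XR-seq NTS, and -0.02468 and -0.04641 on the Damage-seq TS. The Damage-seq ratio of Rpa2 was -0.0635 without GG adjustment. In spleen RNA, Ercc2 was -0.03932 and Ercc4 -0.02122 in 1 fit over all organs. Without 1 library, liver RNA ranged from -0.1982 to 0.23 in Gtf2h4, -0.3973 to 0.4084 in Ercc4, -0.5004 to 0.09145 in Rpa2 and -0.008826 to 0.7223 in Ercc1, lung RNA of Rpa2 from -0.1245 to 0.01475 and of Ercc2 from -0.1018 to 0.2608, spleen RNA of Ercc2 down to -0.04366 and of Ercc4 down to -0.105, and the Damage-seq NTS from -0.2059 to 1.157 in Gtf2h1 and -0.1331 to 0.4048 in Ercc4.

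Without 1 library, genes called ranged from 123 (without cisplatin 1) to 2005 (without control 1) in kidney RNA (0 to 2 of the 10), 22 (without control 1) to 1840 (without cisplatin 1) in liver (0 to 1 of the 10), 292 to 339 in lung, 23 to 25 in spleen, 12017 to 14615 for RNA levels (3 to 5 of the 10) and 8 to 210 for the response between organs. They ranged from 7807 to 12051 on the XR-seq TS (3 to 8 of the 10), 3087 to 8216 on the XR-seq NTS (3 to 5), 11856 to 13171 for its ratio (10) and 201 to 7230 between organs (0 to 8), and in Damage-seq from 3126 to 5539 on the TS (2 to 6), 875 to 3420 on the NTS (2), 6835 to 7910 for the ratio (7 to 8) and 259 to 1457 between organs (0 to 1). Without a cisplatin library of lung or spleen there were values with no test. Beyond the scalings and library sizes shown, the cause of these shifts was not tested.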
